A study of Mus musculus with 36 samples.

Results

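Endomucin (Emcn), the angiopoietins Angpt1 and Angpt2 and the vascular endothelial growth factor ligands Vegfa, Vegfb and Vegfc were followed in cultured mouse nephron progenitor cells (NPCs), the cells of the embryonic kidney that give rise to nephrons. These 6 genes were selected on earlier results of the same libraries and are 6 of the 30125 genes listed in the 3 deposited tables of normalised read counts. Angpt2 and Emcn were chosen from their higher counts after removal of β-catenin in low CHIR, and Vegfc because the study names it as β-catenin dependent in high CHIR, so for those genes the contrasts in question, and the contrasts that share their libraries, are described without a test. All 6 genes have a row in each table and passed the minimum mean count of 10 that was required for a test.

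The 36 RNA-seq libraries form 15 groups. CHIR is an inhibitor of the kinase GSK3 that stabilises β-catenin, and it was given at 0 µM (no CHIR), 1.25 µM (low CHIR, which maintains the progenitors) or 5 µM (high CHIR, which induces differentiation). All cells were primary NPCs from E16.5 kidneys, enriched by magnetic depletion of other cells and grown in the same expansion medium. Wild-type NPCs were profiled at all 3 doses with 3 libraries each. The Ctnnb1 table holds NPCs that carry conditional alleles of the β-catenin gene (genotype B-catenin_c_c), with or without Cre mRNA (Cre and no Cre), and NPCs that express Cas9 (genotype Cas9-eGFP), with guide RNAs to Ctnnb1 or to GFP, each in low and in high CHIR with 2 libraries. The Tcf_Lef table holds Cas9 NPCs with guides to GFP, or with guides to Tcf7l1, Tcf7l2, Tcf7 and Lef1 together (quadruple knockout, QKO), in low and in high CHIR, with 3 libraries per group but 2 for QKO in low CHIR (replicates 1 and 3). The period in low CHIR between transfection and the change of dose was longer for the Tcf_Lef table than for the Ctnnb1 table, and in a comparison of the tables that period and the genes removed cannot be told apart. In both series transfected cells were sorted by mCherry, so that each library is a mixed population of edited cells and not a clone.

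Angiopoietins are secreted ligands of the receptor tyrosine kinase Tek (Tie2) on endothelial cells, where Angpt1 activates the receptor and Angpt2 acts as a context-dependent antagonist or weak agonist. Vegfa binds Flt1 and Kdr and drives the growth of blood vessels, Vegfb binds Flt1, and Vegfc binds Flt4 and Kdr and is best known for the growth of lymphatic vessels. Neuropilins (Nrp1 and Nrp2) are co-receptors for several Vegf ligands. Emcn is a sialomucin of the endothelial surface, in the kidney best known from glomerular and peritubular capillaries. β-catenin activates transcription with the DNA-binding factors Tcf7l1, Tcf7l2, Tcf7 and Lef1, which recognise a core sequence containing CTTTG.

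The guides define which part of each gene was targeted, and they are shown for that reason, 5′ to 3′ in lower case with the adjacent PAM in capitals. The Ctnnb1 guides match exons 3, 4, 4 and 6 of transcript Ctnnb1-201 on chromosome 9 of GRCm38, on the minus strand: sgRNA5-exon3 at chr9:120950729-120950748, sgRNA1-exon2 at chr9:120950987-120951006, sgRNA3-exon3 at chr9:120951011-120951030 and sgRNA6-exon6 at chr9:120951618-120951637. The exon in a guide's name is the study's own and differs from the count along Ctnnb1-201 for some of them.
Ctnnb1 sgRNA5-exon3: agctacttgctcttgcgtgaAGG
Ctnnb1 sgRNA1-exon2: atgagcagcgtcaaactgcgTGG
Ctnnb1 sgRNA3-exon3: agccaagcgctggacattagTGG
Ctnnb1 sgRNA6-exon6: gagattatgcagtgtcgtgaTGG

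Of the 4 QKO guides, 3 were placed in the transcripts used here, all on the plus strand: Tcf7l1 in exon 3 of Tcf7l1-201 at chr6:72788307-72788326, Tcf7l2 in exon 1 of Tcf7l2-217 at chr19:55743069-55743088 and Tcf7 in exon 3 of Tcf7-201 at chr11:52261584-52261603. The Lef1 guide was not placed and is printed, like the GFP control guide, without a PAM.
Tcf7l1: cttaaaaaaagcgccatcctGGG
Tcf7l2: ttagcggccaagaggcaagaTGG
Tcf7: agctgggggacgccatgtggAGG
Lef1: ctcccaggaaagcatccaga
GFP: gggcgaggagctgttcaccg

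The libraries held between 13089780 and 76071568 reads on genes, and the deepest was no CHIR replicate 1 of the wild type. Ctnnb1 counts in high CHIR were 1630 and 1270 with Ctnnb1 guides against 2632 and 2701 with GFP guides (log2 difference -0.89, limma adjusted p = 0.0429), and in low CHIR 1652 and 1040 against 2521 and 3397 (-1.16, adjusted p = 0.252). With Cre the counts lay within or close to those without it (2254 and 2583 against 2423 and 2207 in high CHIR), so that reads over the whole gene do not check the deletion of the conditional exons. Among the 4 QKO targets, only Tcf7 was called lower in high CHIR (110, 180 and 127 against 534, 535 and 268, adjusted p = 0.0175). Lef1 passed the test in the fit with a replicate block (log2 difference -2.12, adjusted p = 0.0476), and not without it (0.131). In wild-type high CHIR, replicate 3 stood apart from replicates 1 and 2, with 1336 counts of Flt1 and 13.1 of Tek. Replicate 1 of the GFP guide group in high CHIR of the Tcf_Lef table held 2474 counts of the macrophage gene Lyz2. Results that rest on either library are given with and without it, where the gene still reached the minimum mean.

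Endothelial cells are the usual source of Emcn and Angpt2, so endothelial markers were read in every library. Counts differed between the markers: the highest count in any of the 36 libraries was 15.8 for Cdh5, 33.6 for Pecam1, 6.4 for Tie1, 9.2 for Erg and 9.2 for Sox18, and Tie1 and Erg were each at 0 in 20 libraries. Other markers on the list had a count above 0 in every library: Egfl7 lay between 119.3 and 540.3, Mmrn2 between 12.7 and 119.2 (median 59.1), Eng between 2.1 and 203.4 (median 55.1) and Plvap between 5.6 and 2308 (median 434.7). Emcn was highest in replicate 1 of Cre in low CHIR, with 1174 counts. The summed endothelial markers of that group were 1331 to 1777, against 932 to 1677 without Cre in low CHIR. With Ctnnb1 guides in low CHIR the sums were 1761 to 1954, against 970 to 1256 with GFP guides, and these ranges lay apart. Limma called 0 of 6 testable endothelial markers there, with 2 at an unadjusted p under 0.05. The highest Tie1 count of all libraries, 6.4, was in replicate 2 of Cre in low CHIR. In bulk RNA a change in the number of cells of a type and a change in RNA per cell cannot be told apart.

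**Figure D1:**
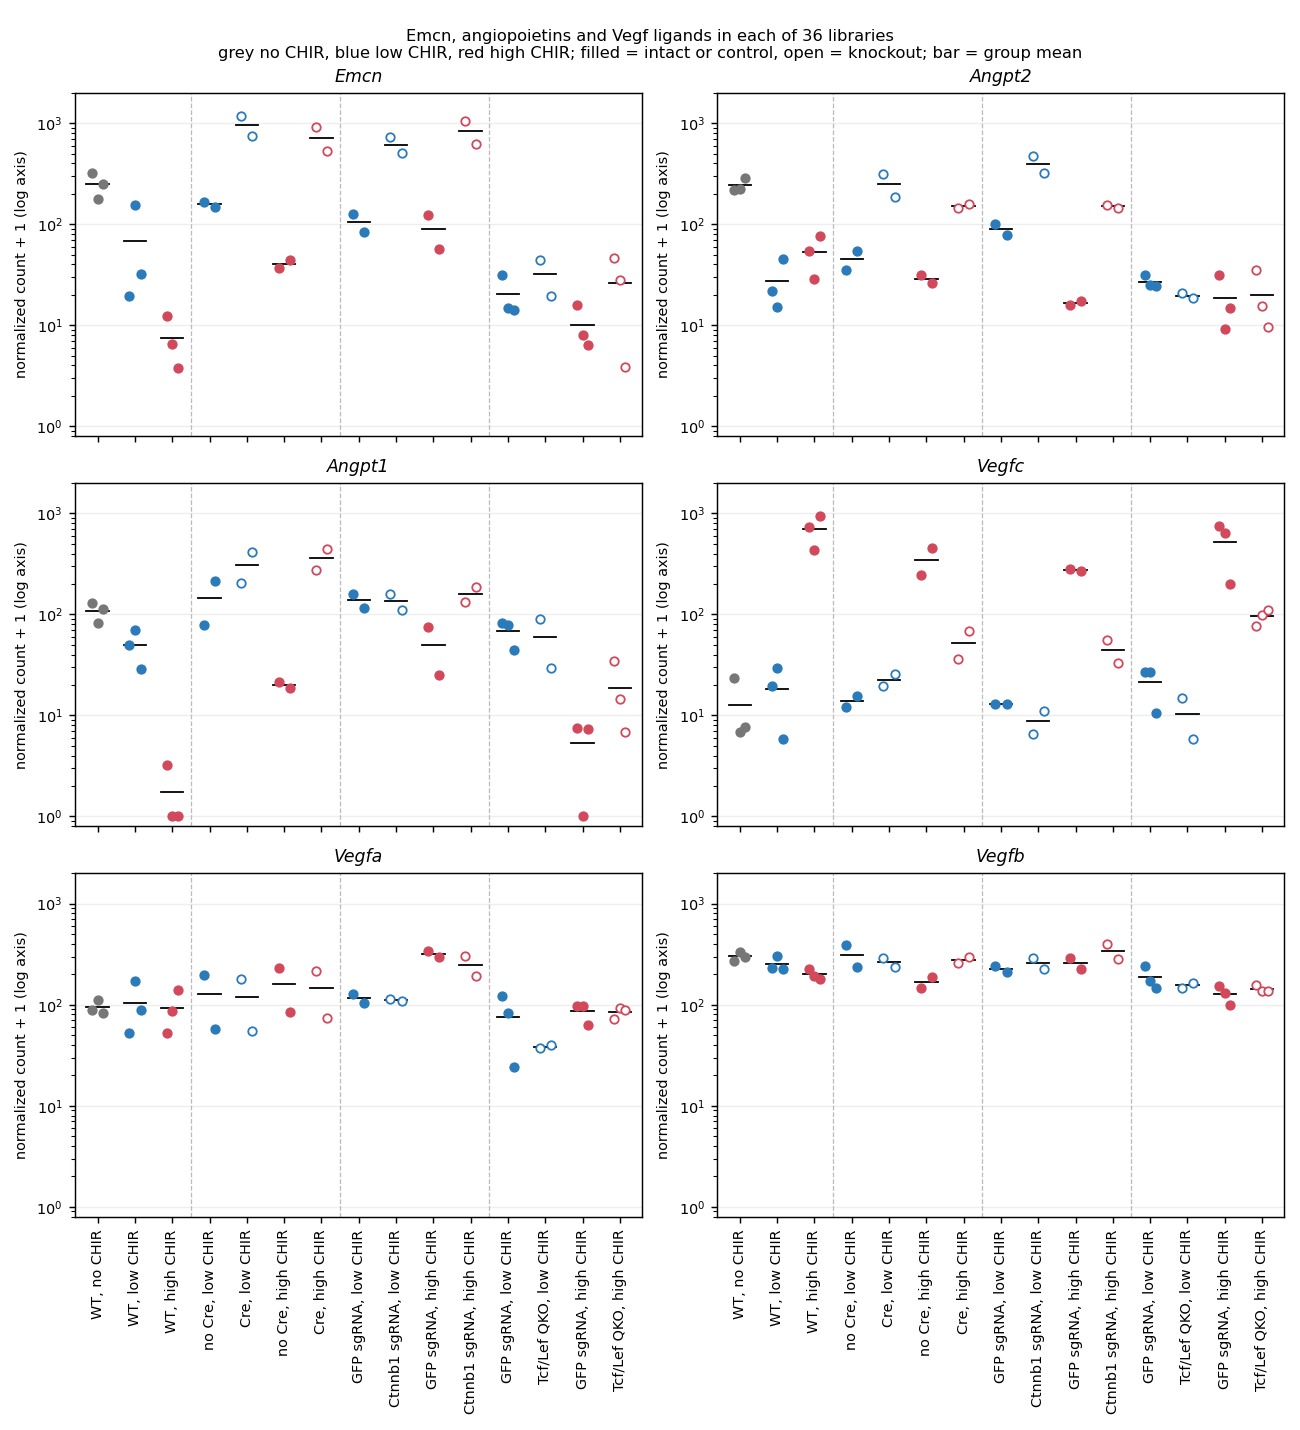
Normalised read count + 1 of each of the 6 genes (log axis) in each library, by group; points are libraries and bars are group means. The 4 Cre and 4 Ctnnb1 guide libraries hold 503 to 1174 counts of Emcn, while the 3 wild-type libraries in high CHIR hold 438 to 938 counts of Vegfc and no more than 11.2 of Emcn.

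Of the 6 genes, 1 rose (Vegfc) and 2 fell (Angpt1 and Emcn) in high against low CHIR of wild-type NPCs. Over all 17411 genes tested, 5.39% were called higher and 5.18% lower in that contrast. The study already names Vegfc for an upregulation in high CHIR, so its rise is counted here as a description. In no against low CHIR, 1 of the 6 rose (Angpt2) and none fell, where 2.39% of all genes were called higher and 2.65% lower. Values within a group are given in the order of the replicate numbers, differences are on the scale of log2(normalised count + 1) with their standard error (SE), and adjusted p-values are limma's with Benjamini-Hochberg adjustment over all genes tested. Nothing in the labels states that libraries came from separate animals or cultures, so the p-values measure only the spread between these libraries.

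Angpt1, the activating ligand of Tek, spans chr15:42424723-42676977 on the minus strand of GRCm38. In wild-type NPCs its counts were 129, 80.5 and 113 without CHIR, 48.6, 69.3 and 27.5 in low CHIR, and 2.24, 0 and 0 in high CHIR. The 3 doses did not overlap, and Angpt1 was nearly absent at the highest dose. The fall from low to high CHIR was 4.97 on the log2 scale (SE 0.56, adjusted p = 0.000432), and without replicate 3 of high CHIR it was -4.69 (adjusted p = 0.00023). That difference depends on the pseudocount, since high CHIR held 2 reads in all against 133 in low CHIR: the ratio of the read rates was 0.0149, with a 95% counting interval of 0.00178 to 0.0548. The higher counts without CHIR did not pass the test against low CHIR (log2 difference 1.2, SE 0.56, adjusted p = 0.243), although the ranges lay apart. The antisense gene Gm17473 shares 737 exon bases with Angpt1 (14.16% of its exon length), and counting by strand is not given in the sources used here. Gm17473 had a mean count of 8.52 or less in every group.

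The same direction with dose was measured for Angpt1 in the control cells of both knockout series. In cells with GFP guides of the Tcf_Lef table, Angpt1 had 81.9, 77 and 43.2 counts in low CHIR and 6.59, 0 and 6.38 in high CHIR, a fall of 4.11 (SE 0.81, adjusted p = 0.00503). Every low CHIR library lay above every high CHIR library, and without the library rich in Lyz2 the difference was -4.60 (adjusted p = 0.00564). In no Cre cells Angpt1 fell from 77.7 and 213 to 20.3 and 17.6 counts (log2 difference -2.71, SE 0.56, adjusted p = 0.00766). This call was lost without no Cre replicate 2 of low CHIR (-1.98, adjusted p = 0.0602) and without no Cre replicate 2 of high CHIR (-2.61, adjusted p = 0.0506). In cells with GFP guides of the Ctnnb1 table the counts were 159 and 116 in low and 74.2 and 23.9 in high CHIR, which did not pass the test (-1.66, SE 0.56, adjusted p = 0.0981).

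Counting the contrasts of high against low CHIR in the control cells, 2 of the 6 genes were called with GFP guides of the Tcf_Lef table: Vegfc was higher and Angpt1 lower, where 7.36% of the 15878 genes tested were called higher and 8.26% lower. The rise of Vegfc is a description here too. In no Cre cells, 1 of the 3 genes that could be tested was lower (Angpt1), against 2.81% of 16780 genes called higher and 5.25% lower. With GFP guides of the Ctnnb1 table, limma called 0 of the 3 testable genes, against 2.98% higher and 4.53% lower over all genes. There 1 of the 3 had an unadjusted p under 0.05, and edgeR and DESeq2 called 0. These contrasts share their libraries with the knockout contrasts.

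Removal of β-catenin is compared first in high CHIR, which was not the stated ground for choosing Angpt2 and Emcn. No ground is stated for Angpt1, and all the genes were chosen with earlier results of these libraries known. With Cre, Angpt1, Angpt2 and Emcn rose and none of the 5 testable genes fell, where 5.90% of the 16780 genes were called higher and 2.75% lower. With Ctnnb1 guides, 2 of the 5 rose (Angpt2 and Emcn), where 3.44% of all genes were called higher and 1.64% lower. The median log2 difference of the 5 testable genes was 2.40 with Cre and 1.87 with Ctnnb1 guides, while the medians over all genes were -0.02 and 0. Angpt2 and Emcn had been chosen on their rise with the same removals in low CHIR. Vegfc, which was lower (-2.74 with Cre and -2.69 with Ctnnb1 guides), is not among the 5. The counts and medians of the 5 are therefore descriptions of a chosen set. Among nephron progenitor genes, 6 of 9 rose and 1 fell with Cre, and 5 of 9 rose with Ctnnb1 guides.

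Angpt1 in high CHIR held 274 and 448 counts with Cre against 20.3 and 17.6 without it. Both Cre libraries lay above both controls, by 17.6-fold (log2 difference 4.14, SE 0.56, adjusted p = 0.000355). With Ctnnb1 guides the counts were 132 and 187 against 74.2 and 23.9 with GFP guides. These ranges lay apart too, but the difference did not pass the test (1.87, SE 0.56, 95% interval 0.66 to 3.07, adjusted p = 0.0752). In low CHIR, Angpt1 had 205 and 415 counts with Cre against 77.7 and 213 without (1.17, SE 0.56, adjusted p = 0.478), and 159 and 109 with Ctnnb1 guides against 159 and 116 with GFP guides (-0.04, SE 0.56, adjusted p = 1). The difference of the Cre effect between high and low CHIR was 2.97 (SE 0.79, 95% interval 1.27 to 4.67) and did not pass the test (adjusted p = 0.123), nor did that of the Ctnnb1 guides (1.91, SE 0.79, adjusted p = 0.648).

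Angpt2, the antagonist or weak agonist of Tek, spans chr8:18690263-18741562 on the minus strand and lies within Mcph1, which is on the opposite strand and shares 0 exon bases with it. Its counts in wild-type NPCs were 217, 221 and 286 without CHIR, 21, 14.2 and 44.3 in low CHIR and 53.8, 27.9 and 74.8 in high CHIR. All 3 libraries without CHIR lay above the other 6. Angpt2 rose by 9.70-fold without CHIR against low CHIR (log2 difference 3.28, SE 0.46, adjusted p = 0.00599), and leaving out each library in turn gave 2.93 to 3.71. Low and high CHIR overlapped (0.99, SE 0.46, 95% interval -0.02 to 2.01, adjusted p = 0.209). By group means the order was no, high and low CHIR for Angpt2, against no, low and high CHIR for Angpt1.

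In high CHIR, Angpt2 counted 143 and 157 with Cre against 30.4 and 24.9 without, and it rose by 5.29-fold (2.40, SE 0.34, adjusted p = 0.000554). With Ctnnb1 guides it counted 155 and 143 against 15 and 16.3, a rise of 9.03-fold (3.17, SE 0.34, adjusted p = 0.000105). All 4 libraries with β-catenin removed held between 143 and 157 counts, a narrow range beside the 15 to 30.4 of their controls. The low CHIR values, on which Angpt2 was selected, were 315 and 184 with Cre against 34.4 and 53.1 without, and 468 and 320 with Ctnnb1 guides against 98.4 and 76.8 with GFP guides. Across the whole Ctnnb1 table the highest mean was that of Ctnnb1 guides in low CHIR and the lowest that of GFP guides in high CHIR.

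Vegfc, a ligand of Flt4, spans chr8:54077606-54187096 on the plus strand. Of the 6 genes, 4 matched a RefSeq promoter, and that of Vegfc is shown because Vegfc rose with high CHIR in wild-type NPCs. It covers chr8:54077282-54077581 (GRCm38.p6, plus strand), from 250 bases before to 50 bases after the RefSeq start, with capitals marking CTTTG on either strand. The window ends before the gene's start given above, which comes from another annotation (GENCODE). It has 70.33% GC and 35 CpG, where the median over 32851 promoters is 52.67% GC and 7 CpG. It holds 1 CTTTG and no CTTTGAT. Of all promoters, 53.93% hold at least 1 CTTTG on either strand and 3.729% hold CTTTGAT. A match of so short a motif is a description and not a binding site.
Vegfc promoter: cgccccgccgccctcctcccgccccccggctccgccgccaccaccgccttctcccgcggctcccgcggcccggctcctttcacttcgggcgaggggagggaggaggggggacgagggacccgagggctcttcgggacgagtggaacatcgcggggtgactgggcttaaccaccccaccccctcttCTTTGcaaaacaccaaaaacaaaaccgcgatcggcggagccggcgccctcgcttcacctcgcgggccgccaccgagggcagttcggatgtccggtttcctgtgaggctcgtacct

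In wild-type NPCs Vegfc counted 736, 438 and 938 in high CHIR against 18.4, 28.5 and 4.79 in low CHIR and 22.4, 5.85 and 6.7 without CHIR. High CHIR lay above both other doses in every library, while low and no CHIR overlapped. The rise from low to high CHIR was 45.1-fold (log2 difference 5.50, SE 0.65, adjusted p = 0.000567), and without replicate 3 of high CHIR it was 5.25 (adjusted p = 0.000479). No CHIR did not differ detectably from low CHIR (-0.47, SE 0.65, 95% interval -1.92 to 0.98, adjusted p = 0.728). With GFP guides of the Tcf_Lef table, Vegfc counted 743, 634 and 200 in high against 25.7, 25.7 and 9.51 in low CHIR, a rise of 4.54 on the log2 scale (SE 0.54, adjusted p = 0.000168). Without the library rich in Lyz2 the rise was 4.19 (adjusted p = 0.000908). The study names Vegfc for an upregulation in high CHIR that depends on β-catenin. The calls of its rise in the wild type and with GFP guides are therefore descriptions and not independent support.

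In the Ctnnb1 table, where Vegfc had been selected on its high CHIR values, it counted 243 and 449 without Cre against 35.3 and 66.8 with Cre, and 283 and 268 with GFP guides against 55.3 and 31.7 with Ctnnb1 guides. All 4 libraries with β-catenin removed lay below all 4 controls, yet none was as low as the control cells in low CHIR, which held 11.1 to 14.7 counts. In low CHIR, which was not the stated ground of the choice, Vegfc had 18.6 and 24.5 counts with Cre against 11.1 and 14.7 without (0.70, SE 0.47, adjusted p = 0.643), and 5.49 and 10.1 with Ctnnb1 guides against 11.9 and 11.9 with GFP guides (-0.61, SE 0.47, adjusted p = 1). The direction of these differences was opposite in the Cre and the guide experiment, and neither passed the test.

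The QKO asked whether guides to all 4 DNA-binding partners of β-catenin moved the same genes. The study reports incomplete removal of protein by single guides, with less removal for Tcf7 than for the other targets. In high CHIR, 1 of the 6 genes was called, Vegfc, which fell. Over the 15878 genes tested, 2.07% were called higher and 0.491% lower, and with the replicate number as a block 890 genes were higher and 376 lower, against 329 and 78 without the block. Vegfc counted 76.5, 97.6 and 110 with QKO against 743, 634 and 200 with GFP guides (log2 difference -2.27, SE 0.54, adjusted p = 0.0491). The groups lay apart, but the call was lost when any one of 5 of the 6 libraries was left out: without replicate 1 with GFP guides it was -1.92 (adjusted p = 0.154), without replicate 2 with GFP guides -2.03 (0.223), and without QKO replicates 1, 2 and 3 it was -2.12 (0.183), -2.30 (0.152) and -2.38 (0.11). It was lost with a pseudocount of 0.5 too, and none of these fits used the replicate block. The adjusted p was 0.0054 with the replicate block, 0.0195 in edgeR, 1.31e-05 in DESeq2 and 0.0238 with only the libraries of the comparison. In low CHIR, Vegfc had 13.9 and 4.89 counts with QKO against 25.7, 25.7 and 9.51 (-1.06, SE 0.60, adjusted p = 0.904).

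In low CHIR, limma called 0 of the 6 genes in QKO, where 0.00630% of all genes, 1 gene, was called higher and 0% lower. None of the 6 had an unadjusted p under 0.05, and edgeR and DESeq2 called 0. In QKO in high CHIR, Angpt2 had 33.9, 14.5 and 8.68 counts against 30.5, 8.09 and 13.8 (0.10, SE 0.53, 95% interval -1.05 to 1.26, adjusted p = 0.953). Emcn had 45.2, 27 and 2.89 counts against 14.8, 7.08 and 5.32 (0.88, SE 0.80, 95% interval -0.86 to 2.62, adjusted p = 0.661), with overlapping groups. The upper bounds of these intervals lie below the differences of Angpt2 and Emcn in high CHIR with Cre (2.40 and 4.09) and with Ctnnb1 guides (3.17 and 3.27). For Emcn the interval with Ctnnb1 guides, 2.39 to 4.15, overlaps that of QKO. The tables were normalised separately, the knockout period differed between them and the difference between the 2 kinds of knockout was not tested. How complete each knockout was in these libraries was not measured here. Among nephron progenitor genes, 6 of 9 rose and none fell in QKO in high CHIR, where 2.07% of all genes were called higher. Angpt1 had 33.9, 13.5 and 5.79 counts against 6.59, 0 and 6.38 and did not pass the test (1.98, SE 0.81, 95% interval 0.20 to 3.76, adjusted p = 0.285). These tests and intervals did not use the replicate block. With the block limma called 1 of the 6 genes in QKO in high CHIR, Vegfc, and the adjusted p of Angpt1 was 0.0954.

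**Figure D2:**
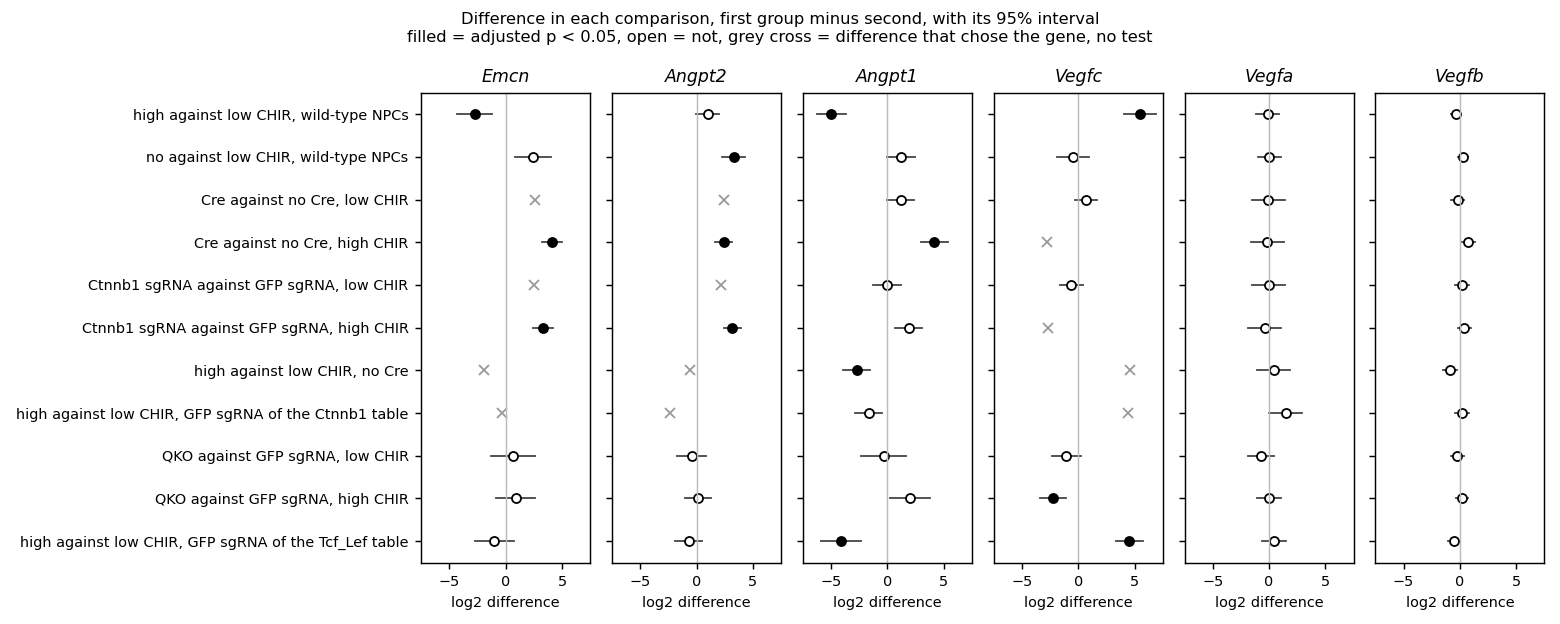
Difference on the log2(normalised count + 1) scale for each of the 6 genes (panels) in each comparison (rows), with 95% intervals; filled points passed the test, open points did not, and grey crosses are differences that went into choosing the gene or share its libraries. Emcn and Angpt2 lie to the right of 0 in both β-catenin removals in high CHIR (4.09 and 3.27 for Emcn), while Vegfc lies to the left in QKO in high CHIR (-2.27).

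Vegfa, the main ligand for the growth of blood vessels, spans chr17:46016993-46032369 on the minus strand. In wild-type NPCs it counted 51.5, 86.5 and 139 in high CHIR, 51.2, 170 and 87.4 in low CHIR and 88.5, 111 and 82.7 without CHIR. The doses overlapped fully, and neither contrast passed the test (high against low -0.10, SE 0.46, 95% interval -1.12 to 0.92, adjusted p = 0.927). In the Ctnnb1 table replicates of one group differed widely, as with 232 and 84 counts in no Cre cells in high CHIR. With GFP guides it counted 342 and 294 in high against 128 and 103 in low CHIR, which lay apart without passing the test (1.46, SE 0.68, adjusted p = 0.245). With only the libraries of that comparison in the fit the adjusted p was 0.0169. Replicate 1 of Vegfa lay above replicate 2 in all 8 groups of that table. Neither removal of β-catenin moved Vegfa past the test in either dose, and the adjusted p-values were 0.809 or higher. In QKO the differences were -0.02 in high CHIR (SE 0.48, adjusted p = 0.991) and -0.70 in low CHIR (SE 0.53, adjusted p = 0.904).

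Vegfb, a ligand of Flt1, spans chr19:6982473-6987651 on the minus strand and varied least of the 6 genes, from 97.8 to 396 counts over all 36 libraries. Its wild-type counts were 270, 334 and 299 without CHIR, 229, 304 and 223 in low and 227, 193 and 177 in high CHIR. Low CHIR overlapped both other doses (high against low -0.33, SE 0.20, 95% interval -0.77 to 0.11, adjusted p = 0.342). In no Cre cells the counts were 146 and 185 in high against 390 and 234 in low CHIR, apart but not past the test (-0.87, SE 0.28, adjusted p = 0.0781). With Cre in high CHIR they were 260 and 293 against 146 and 185 (0.74, SE 0.28, adjusted p = 0.134). In QKO in high CHIR the Vegfb difference was 0.18 (SE 0.23, adjusted p = 0.774).

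Emcn, the sialomucin, spans chr3:137341067-137432185 on the plus strand. Its RefSeq promoter is shown for comparison with that of Vegfc, since the counts of these genes moved in opposite directions with CHIR in wild-type NPCs. It covers chr3:137340828-137341127 (GRCm38.p6, plus strand), has 41% GC and 2 CpG, and holds CTTTG on the opposite strand at 2 places, written in capitals as CAAAG, and no CTTTGAT.
Emcn promoter: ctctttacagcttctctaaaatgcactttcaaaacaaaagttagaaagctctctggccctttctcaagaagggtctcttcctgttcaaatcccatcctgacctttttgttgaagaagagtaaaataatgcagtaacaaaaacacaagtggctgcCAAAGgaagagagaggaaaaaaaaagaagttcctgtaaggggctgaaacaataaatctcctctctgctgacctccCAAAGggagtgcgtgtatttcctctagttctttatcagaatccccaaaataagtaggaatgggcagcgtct

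In wild-type NPCs Emcn counted 323, 176 and 250 without CHIR, 18.4, 154 and 31.1 in low CHIR and 11.2, 5.58 and 2.8 in high CHIR. The 3 doses did not overlap. The fall from low to high CHIR was 2.77 on the log2 scale (SE 0.71, adjusted p = 0.0333). It was lost without replicate 2 of low CHIR, the library with 154 counts (-1.89, adjusted p = 0.078), without replicate 3 of low CHIR (-3.02, 0.0711) and without replicates 2 and 3 of high CHIR (-2.75, 0.0669, and -2.36, 0.0506). Without CHIR, Emcn was 2.41 above low CHIR and did not pass the test (SE 0.71, adjusted p = 0.0813). With GFP guides of the Tcf_Lef table the counts were low in both doses, 30.6, 13.8 and 13 in low and 14.8, 7.08 and 5.32 in high CHIR, and overlapped (-1.01, SE 0.80, adjusted p = 0.46).

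After removal of β-catenin in high CHIR, Emcn counted 911 and 523 with Cre against 35.9 and 43.6 without, and it rose by 17-fold (4.09, SE 0.41, adjusted p = 2.85e-05). With Ctnnb1 guides it counted 1041 and 617 against 121 and 55.5 with GFP guides, a rise of 9.65-fold (3.27, SE 0.41, adjusted p = 0.000364). Every library with β-catenin removed lay above every control, and both calls held when each library was left out in turn, with differences of 3.69 to 4.49 and of 2.71 to 3.83. In low CHIR, on which Emcn was selected, the values were 1174 and 748 with Cre against 165 and 147 without, and 720 and 503 with Ctnnb1 guides against 126 and 83.3 with GFP guides. The 4 groups with β-catenin removed held the 4 highest means of the table, and neighbours among them overlapped.

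Markers of other cells moved with some of these contrasts. Of 6 testable endothelial markers, 2 rose and none fell both with Cre and with Ctnnb1 guides in high CHIR, Cldn5 (62.6 and 52.2 against 5.52 and 6.22 counts with Cre) and Plvap (249 and 409 against 59.8 and 50.8). Over all genes, 5.90% were called higher with Cre and 3.44% with Ctnnb1 guides. The summed endothelial markers were 939 to 966 with Cre against 396 to 494 without, and 1204 to 1276 with Ctnnb1 guides against 455 to 547. The call of Plvap with Ctnnb1 guides was lost without replicate 2 of either group (adjusted p up to 0.0851). Cldn5 and Plvap also rose in QKO in high CHIR, where Emcn and Angpt2 were not called, Cldn5 with 47.8, 81 and 45.3 against 3.3, 14.2 and 5.32 counts. That call of Cldn5 was lost without any library but GFP guide replicate 2 (adjusted p up to 0.128). In wild-type high CHIR, Cldn5 was listed at 0 in all 3 libraries and Plvap fell to 28, 40.5 and 5.61 counts from 162, 386 and 340. Of 5 testable blood markers, 1 fell there against low CHIR, Lyz2, where 5.18% of all genes were called lower. The summed blood markers of the wild type were 959 to 1283 without CHIR, 728 to 891 in low and 236 to 346 in high CHIR. The highest such sum in the Ctnnb1 table was 126. Of 9 testable mural and stromal markers, 1 rose in each removal, Cspg4, and the summed markers were 8570 to 15990 with Cre against 5632 to 7552 without, and 14280 to 21254 with Ctnnb1 guides against 5605 to 16193. In QKO in high CHIR, limma called 0 of 8 mural and stromal markers without the block (1 at an unadjusted p under 0.05, and 0 by edgeR and DESeq2), and with the block 5 of 8 were higher: Col1a1 (1.86, adjusted p = 0.00107), Cspg4 (1.63, 0.00119), Pdgfrb (1.35, 0.00318), Pdgfra (1.58, 0.0172) and Col3a1 (0.99, 0.0339). With the block, 890 of all 15878 genes tested were called higher and 376 lower. The median difference of the 8 mural and stromal markers was 1.39, and their sums were 1674 to 10394 with QKO against 1174 to 5363 with GFP guides. The part of all these markers in the values of Emcn, Angpt1 and Angpt2 was not tested.

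Difference tests between the doses were made for the genes that were not chosen on those libraries, as far as the ground of the choice is stated. Of 3 testable genes, limma called 0 for the Cre effect, where 0.995% of all genes passed, and 0 for the Ctnnb1 guide effect, where 0.518% passed. The unadjusted p was under 0.05 for 2 and for 1 of the 3, edgeR called 0 in both, and DESeq2 called 1 (Cre) and 0. For the QKO effect limma called 0 of 6, against 0.126% of all genes, with 0 at an unadjusted p under 0.05 and 0 by edgeR and DESeq2.

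The receptors of these ligands are the first of the related genes. Of 7 receptors tested in wild-type NPCs, 2 rose (Tek and Ptprb, a phosphatase that dephosphorylates Tek) and 1 fell (Flt4) in high against low CHIR, and 1 rose (Nrp1) in no against low CHIR, where 5.39% and 5.18% (high against low) and 2.39% and 2.65% (no against low) of all genes were called higher and lower. Tek and Ptprb reached the minimum mean only through high CHIR, so that the count of receptors that rose is a description. Flt4, the receptor of Vegfc, counted 5.6, 12.6 and 17.8 in high CHIR against 522, 590 and 620 in low CHIR, a fall of 5.60 on the log2 scale (SE 0.34, adjusted p = 9.64e-06) that held without each library in turn. So the ligand Vegfc and its receptor Flt4 moved in opposite directions with CHIR in wild-type NPCs. With GFP guides of the Tcf_Lef table Flt4 fell likewise, from 571, 477 and 476 to 82.4, 56.6 and 102 counts (-2.68, adjusted p = 9e-06), and this held without each library. In the Ctnnb1 table Flt4 was lower in high CHIR too, with 109 and 93.4 against 581 and 360 counts without Cre (-2.17, adjusted p = 0.00439, and 0.0587 without no Cre replicate 1 of low CHIR). With GFP guides there it counted 169 and 213 against 693 and 579 (-1.73, adjusted p = 0.0202), a call lost without any one of the 4 libraries (adjusted p up to 0.135).

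Flt4 was the receptor that QKO moved in high CHIR: it counted 282, 321 and 351 against 82.4, 56.6 and 102 with GFP guides (2.01, SE 0.21, adjusted p = 0.000687), above every control library. This call held without each library in turn, with an adjusted p of 0.0061 or less. With the replicate number as a block, Nrp2 was called too (2.28, adjusted p = 0.0044, against 0.244 without the block), and so was the difference of the QKO effect on Flt4 between doses (1.45, adjusted p = 0.0451, against 0.195). With Cre and Ctnnb1 guides in high CHIR the Flt4 differences were 0.53 (adjusted p = 0.517) and 0.92 (adjusted p = 0.238).

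Tek, the receptor of both angiopoietins, counted 769, 586 and 13.1 in wild-type high CHIR, and 0, 0 and 2.4 in low CHIR. It reached the minimum mean only through high CHIR, where replicate 3 lay far below the other libraries of its group, so that its call (adjusted p = 0.00895) is given as a description. The call held without each library in turn (log2 difference 5.92 to 8.81, adjusted p up to 0.0401). With GFP guides of the Tcf_Lef table Tek counted 72.5, 172 and 172 in high against 2.45, 0 and 1.73 in low CHIR (adjusted p = 8.7e-05), again a gene that passed through high CHIR. That call held without each library too (5.41 to 6.36, adjusted p up to 0.00103). The sizes of these differences depend on the pseudocount. Outside high CHIR, Tek did not exceed 7.95 counts in any library, and in the Ctnnb1 table it did not exceed 21.7 counts. Ptprb (26.9, 8.38 and 471 counts in high against 0, 0 and 1.2 in low CHIR, adjusted p = 0.0251) owed its mean to replicate 3. Without replicate 3 of high CHIR it did not reach the minimum mean, and the call was lost without any one of the low CHIR libraries (adjusted p up to 0.0811).

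Nrp1, the co-receptor with the highest counts on the list, rose with both removals of β-catenin in high CHIR, with 3278 and 6098 counts with Cre against 839 and 1617 (1.94, SE 0.43, adjusted p = 0.0117), and 3509 and 4210 with Ctnnb1 guides against 1140 and 654 (2.15, SE 0.43, adjusted p = 0.0111). These calls were lost without 2 of 4 libraries (no Cre replicate 1 or Cre replicate 2) and without 3 of 4 (either Ctnnb1 guide library or GFP guide replicate 2), with adjusted p-values up to 0.13 and 0.153. It was also higher without CHIR in wild-type NPCs (5689, 3864 and 6287 against 2141, 1884 and 2352, adjusted p = 0.0326), a call lost without any library but no CHIR replicate 2 (adjusted p up to 0.152). In QKO in high CHIR, Nrp1 had a difference of 0.18 (SE 0.15, adjusted p = 0.641). Kdr, the main receptor of Vegfa, did not exceed 29.9 counts in any library. Flt1, the receptor shared by Vegfa, Vegfb and Pgf, was called higher in high CHIR with GFP guides of the Tcf_Lef table (42.9, 22.2 and 8.51 against 6.12, 2.96 and 6.05 counts, 1.87 on the log2 scale, adjusted p = 0.0465), and the call was lost without any one of the low CHIR libraries or high CHIR replicate 2 (adjusted p up to 0.165). Without high CHIR replicate 1, the library rich in Lyz2, Flt1 did not reach the minimum mean and was not tested. Nrp2 was called lower in high CHIR without Cre (11 and 25.9 against 67.7 and 179 counts, -2.63, adjusted p = 0.0473), a call lost without any one of those 4 libraries (adjusted p up to 0.251).

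**Figure D3:**
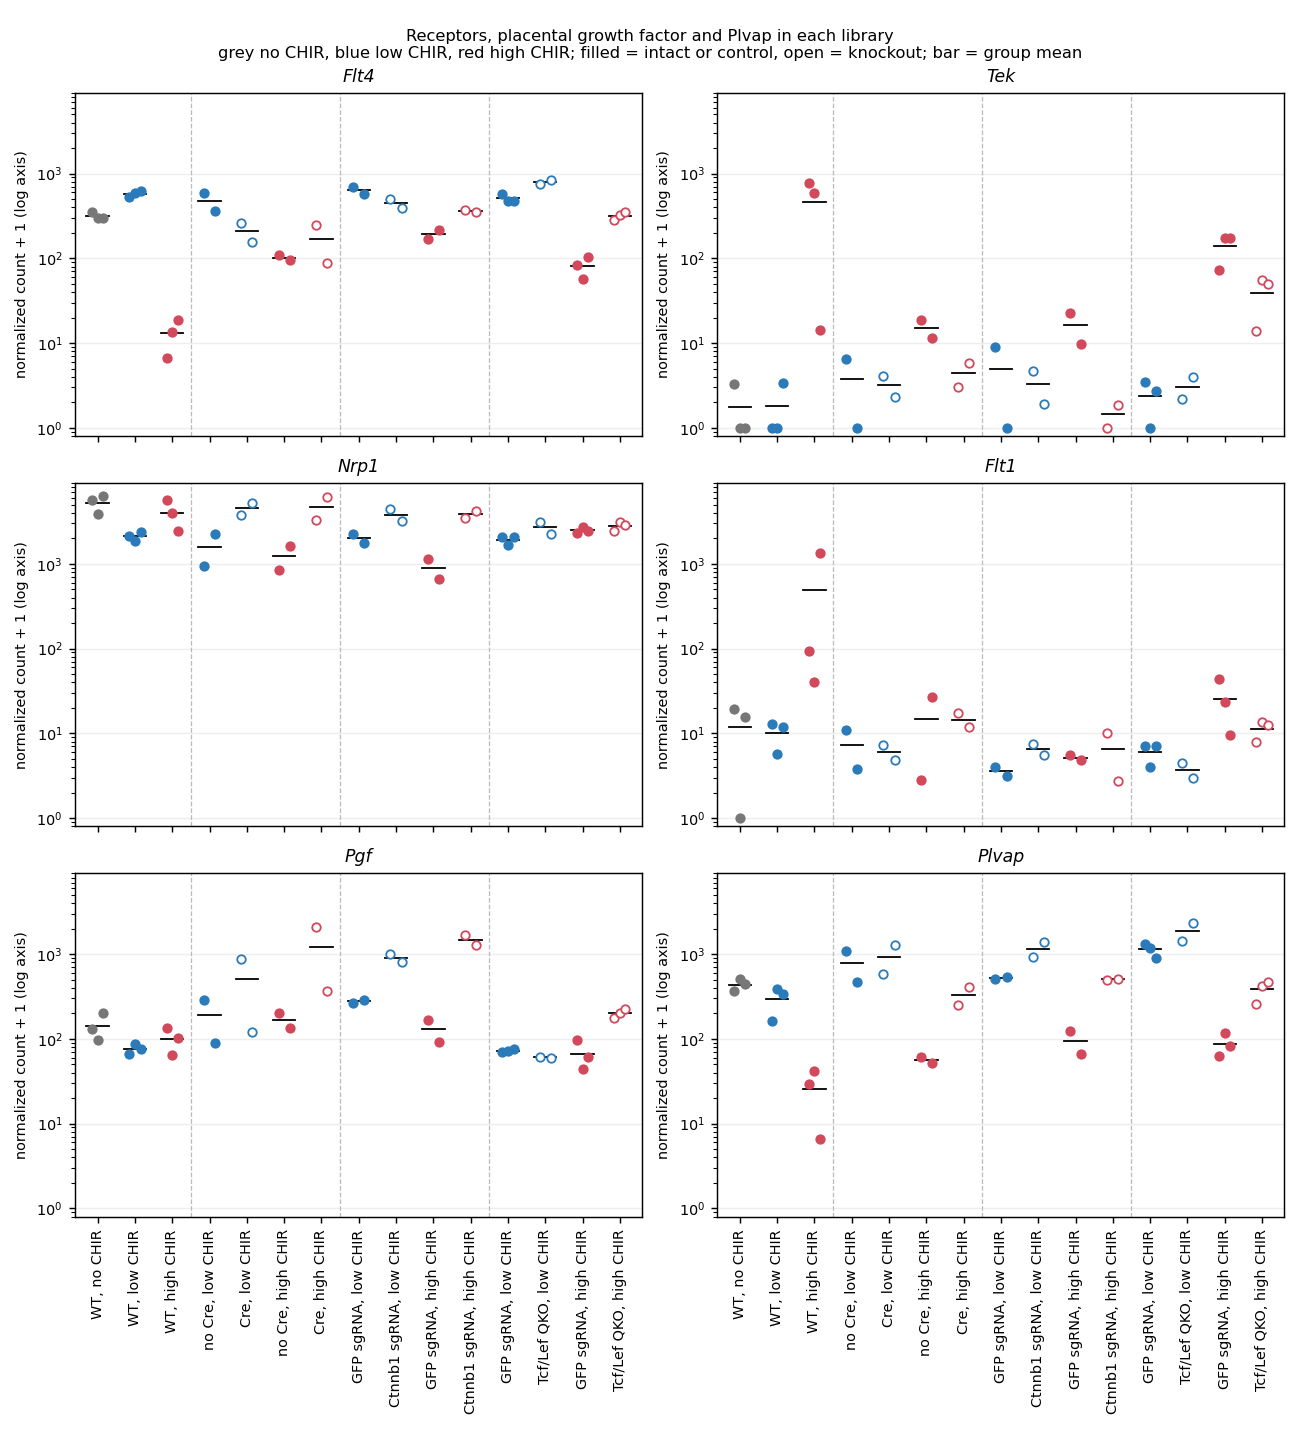
Normalised read count + 1 (log axis) of Flt4, Tek, Nrp1, Flt1, Pgf and Plvap in each library, by group; points are libraries and bars are group means. Flt4 lies at 5.6 to 17.8 counts in wild-type high CHIR and at 522 to 620 in low CHIR. Tek is higher in high than in low CHIR there, but a high CHIR library lies far below the others of its group.

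Among 9 other ligands of the families, 7 could be tested in the wild type and in the Ctnnb1 table and 6 in the Tcf_Lef table. Pgf (placental growth factor), a ligand of Flt1, was the 1 called in each of the contrasts that called any. Over all genes, 2.07% were called higher in QKO in high CHIR and 3.44% with Ctnnb1 guides in high CHIR. Pgf rose in QKO in high CHIR, with 176, 202 and 227 counts against 95.6, 42.5 and 59.5 (1.67, SE 0.27, adjusted p = 0.00767), and the call held without each library in turn. With Ctnnb1 guides in high CHIR it counted 1671 and 1269 against 166 and 90 (3.57, SE 0.86, adjusted p = 0.0303), a call lost without any one of the 4 libraries (adjusted p up to 0.239). With Cre, 2076 and 362 against 202 and 133 did not pass the test (2.40, adjusted p = 0.112). Under the block, the difference of the QKO effect on Pgf between doses was called (2.03, adjusted p = 0.0443, against 0.138), and so was Angptl4 in QKO in high CHIR (1.43, adjusted p = 0.00691, against 0.45).

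Of the other sialomucins, Cd34 followed Emcn in direction in the Ctnnb1 table, at far lower counts. In high CHIR it counted 38.4 and 14.6 with Cre against 0 and 2.07 (adjusted p = 0.00746), and 15.7 and 22.9 with Ctnnb1 guides against 5.25 and 0 (adjusted p = 0.0449). The first call was lost without Cre replicate 1 or no Cre replicate 1 (adjusted p up to 0.0843), and the second without either Ctnnb1 guide library or GFP guide replicate 2 (up to 0.414). Podxl rose in wild-type high CHIR (24.6, 23.7 and 82.3 against 6.57, 10.4 and 3.59 counts, adjusted p = 0.0496), a call lost without any one of the 6 libraries (up to 0.18).

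Vegfa responds to low oxygen, and hypoxia genes, a list of genes of that response, were read beside it. In wild-type NPCs 0 of 16 were called in high against low CHIR by limma (3 at an unadjusted p under 0.05, and 0 by edgeR and DESeq2), and 1 fell without CHIR, Pdk1, with 50.7, 26.3 and 53.6 against 118, 634 and 369 counts (-2.83, SE 0.59, adjusted p = 0.0284). Over all genes, 2.65% were called lower without CHIR. In that contrast 8 of the 16 had an unadjusted p under 0.05, edgeR called 1 and DESeq2 called 5, and the median log2 difference was -0.40 against 0.01 over all genes. The call of Pdk1 was lost without no CHIR replicates 2 or 3 or low CHIR replicates 2 or 3 (adjusted p up to 0.11). With Cre and with Ctnnb1 guides, limma, edgeR and DESeq2 called 0 of the 16 in either dose, with at most 1 at an unadjusted p under 0.05. With GFP guides of the Tcf_Lef table, 2 of 14 rose and 1 fell in high CHIR, where 7.36% of all genes were called higher and 8.26% lower. Of these calls, that of Pgk1 (0.59, adjusted p = 0.00679) held without each library.

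Removal of β-catenin in low CHIR, where Angpt2 and Emcn were chosen, left 4 genes to test. Limma called 0 of the 4 with Cre, where 0.179% of all genes were called higher and 0.149% lower, and 0 of the 4 with Ctnnb1 guides, where 0.0358% were higher and 0.0179% lower. None had an unadjusted p under 0.05, and edgeR and DESeq2 called 0. Against those shares, the described differences of Angpt2 (2.46 with Cre and 2.14 with Ctnnb1 guides) and Emcn (2.58 and 2.54) are those of genes picked for them.

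Levels can be compared between genes only per length, here as group means of normalised counts per kilobase of exon. On that scale Vegfb was the highest of the 6 in 11 of the 15 groups, at 187.5 per kilobase without CHIR in the wild type. Vegfc was the highest in wild-type high CHIR (287.6), in no Cre high CHIR (141.3) and with GFP guides in high CHIR of the Tcf_Lef table (214.6). Emcn was the highest in Cre low CHIR (177.6). Angpt1 had the lowest level of all, 0.1435 per kilobase in wild-type high CHIR.

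**Figure D4:**
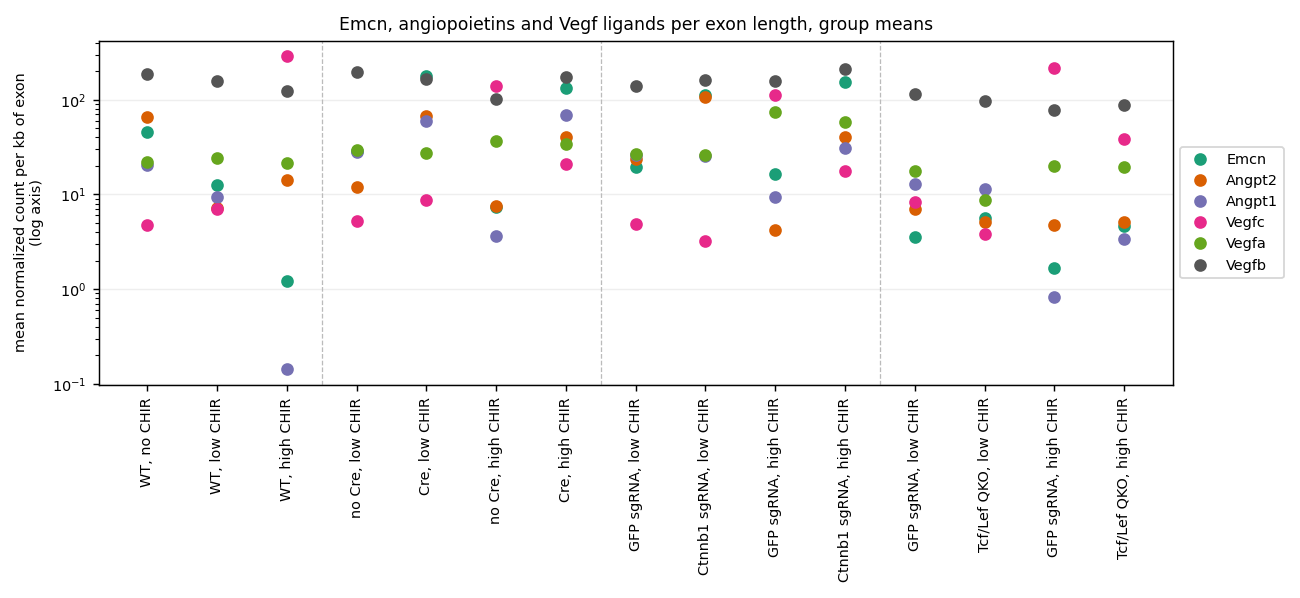
Group mean of normalised counts per kilobase of exon for the 6 genes (log axis) in the 15 groups. Vegfb is high throughout (78.86 to 211.6), while Vegfc spans 3.183 to 287.6 and Emcn 1.207 to 177.6.

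Over all 36 libraries, which share tables, doses and control groups, the pattern of Angpt1 was most like that of Emcn among the 6 genes (Pearson r 0.80 on log2 counts after subtraction of each table's mean), and opposite to that of Vegfc (-0.80). Angpt2 and Emcn had r 0.69, and Vegfa had no r beyond 0.34 with any other of the 6. Among 11712 genes with a mean of at least 50 in each table, the patterns closest to Vegfc were those of Sorbs2, Cthrc1 and Pdgfa (0.95 each), and those closest to Angpt1 were Abcg2, Dubr (0.93 each) and Pwwp2b (0.92). For Emcn they were Atp1b2 (0.87), Mme and Fam110b (0.85 each), for Angpt2 Bcl2l11, Emp2 (0.85 each) and Suox (0.84), for Vegfb Cenpb (0.87), Csk (0.83) and Sh2b3 (0.82), and for Vegfa Slc7a5 (0.77), Phf10 and Slc7a1 (0.74 each). These are descriptions across libraries that are not independent.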

How the data were processed

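RNA from cultured mouse NPCs was converted to cDNA with a SMARTer Ultra Low kit and sequenced as paired reads of 150 bases. The submitters' processing notes name bcl2fastq, STAR, Subread featureCounts, Salmon and DESeq2 and the builds GRCm38, GRCh38 and mm10, without giving each its role. The values used are signal in 3 deposited tables, read counts per gene that the authors divided by size factors, separately for each table. Each library's step between low values gave whole reads for 100% of values (tolerance 0.01). Another 50 columns of per-library values were not assigned to a sample and were not used, and 8 deposited tables of the authors' own comparisons hold fold changes and p-values and were not used.

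Differences were fitted with limma 3.58.1 (R 4.3.3) with a variance trend on log2(normalised count + 1), over all libraries of a table, for genes with a mean of at least 10, with Benjamini-Hochberg adjustment over all genes tested (17411, 16780 and 15878), and a gene was called at an adjusted p under 0.05. The fit was tested on simulated data. The smallest two-sided p of an exact permutation test with 3 libraries in each group is 0.1, and no such test was made. Alternatives were a pseudocount of 0.5, no filter, TMM rescaling, edgeR 4.0.16 quasi-likelihood and DESeq2 1.42.0 on the recovered reads, the replicate number as a block, only the libraries of a contrast, and leaving out each library. edgeR on recovered reads called 1883 genes in high against low CHIR of the wild type, where limma called 1841.

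In the Tcf_Lef table the replicate numbers pair the libraries: dates in the headers of deposited comparison tables are shared by replicate number, and every correlation of same-numbered deviations from the group means was over 0.1 (0.249 to 0.63). Named with values were the 6 genes, receptors and other ligands with a mean of at least 10, the marker with the highest level of a list and the targeted genes; Cldn5, Cspg4, Cd34, Podxl, Pdk1, Pgk1, Angptl4, Lyz2 and the defining endothelial markers were named after their values were seen. The members and lists were chosen with earlier results of these data known. Genes most like a member were the 3 with the highest Pearson r of log2 counts over the 36 libraries, after subtraction of each table's mean. Gene positions come from GENCODE vM21 (GRCm38), promoters from RefSeq (GRCm38.p6), and guide sequences from the study's supplement.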

Additional observations from a re-analysis of the deposited data

How the results depend on the processing

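Over 527 results for single genes among the 6 and settings, 500 kept their direction and side of the threshold, 12 passed it newly, 13 lost it and 2 changed sign. The sign changes were Vegfa in no against low CHIR, at 0.03 in limma and -0.12 in edgeR and in DESeq2 (adjusted p = 0.912 and 0.919). The number of the 6 genes called in that contrast was 1, and 2 with DESeq2 or with only its libraries (1 to 2 when each library was left out). In high against low CHIR it was 1 without Cre, and 2 with DESeq2 or the replicate block (0 to 1 without each library), and 0 with GFP guides of the Ctnnb1 table, 2 with the block and 1 with only its libraries (0 to 1). For the difference of the Cre effect it was 0, and 1 with DESeq2 or the block. In QKO in high CHIR it was 1, and 0 with a pseudocount of 0.5 (0 to 1). Leaving out each library gave 2 to 3 called genes in wild-type high against low CHIR and with Ctnnb1 guides in high CHIR. With only its libraries in the fit, Emcn in wild-type high against low CHIR had an adjusted p of 0.0951. The cause of these changes was not tested.

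Replicate numbers were not shown to pair libraries in the wild type (correlations of same-numbered deviations -0.0156 to 0.177) or, with 2 libraries a group, in the Ctnnb1 table (0.196 to 0.491). Among the 6 genes the block changed 6 calls, all of them newly passing, and none in the Tcf_Lef table. They include Vegfa with GFP guides of the Ctnnb1 table in high against low CHIR (adjusted p = 0.000635) and Angpt1 with Ctnnb1 guides in high CHIR (0.011, and 0.0282 in DESeq2, 0.107 in edgeR and 0.0664 with only its libraries). With the block, calls over all genes rose in the Ctnnb1 table from 55 to 515 (Cre) and 9 to 21 (guides) in low CHIR, from 1452 to 2744 and 854 to 2201 in high CHIR, from 1352 to 2755 (no Cre) and 1260 to 2669 (GFP guides) for high against low CHIR, and from 167 to 526 and 87 to 235 for the differences of effects. In the Tcf_Lef table they rose from 1 to 16 (QKO, low CHIR), 407 to 1266 (QKO, high CHIR), 2479 to 3889 (GFP guides, high against low CHIR) and 20 to 136 (difference). DESeq2 called 2780 and 1940 genes in the wild type against 1841 and 878, 281, 1984, 30 and 1506 in the removals of β-catenin (Cre low, Cre high, guides low, guides high), 381 and 210 for the differences of those effects, and 22, 912 and 158 for QKO in low CHIR, in high CHIR and their difference. With only the libraries of a contrast the counts were 2105 (no against low CHIR), 11 and 714 (Cre, low and high CHIR), 0 and 1748 (guides), 616 (no Cre, high against low) and 51 (difference of the Cre effect). With a pseudocount of 0.5, 0 genes were called with guides in low CHIR, and without a filter 4 were called in QKO in low CHIR. Of 442 results for list genes, 350 kept their call and 92 lost it.

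Depth limits the lowest values: Angpt1 in wild-type high CHIR rests on 2 reads, and groups of 2 libraries give wide intervals.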
